A study of Mus musculus with 9 samples.

Results

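RNA levels were compared between mice making 2 mutant forms of histone H3.3, one with lysine 36 and the other with lysine 9 replaced by methionine. The cells were LSK cells, the bone marrow fraction that lacks lineage markers and carries Sca1 and cKit, where blood stem cells and early progenitors are found. The comparison takes 6 of the 9 libraries, 3 from K36M mice and 3 from K9M mice, and 12503 of the 37882 listed genes: those with an RPKM of at least 1 in at least 3 of the 6 libraries. RPKM is the read count of a gene scaled to its length and to the library's depth. K36M mice carried H3K36M in Col1a1 and rtTA in Rosa26. K9M mice carried H3K9M in Col1a1 and the same rtTA. Rosa26 is a widely active locus, and rtTA is an activator that switches on its target promoter in the presence of doxycycline. All mice were on a B6/129 background, were 6 to 8 weeks old and drank water with doxycycline at 2 mg/ml and sucrose at 10 mg/ml. The third group, 3 control mice with rtTA alone, shared all of this except the histone gene and is used here for the spread of values and as a reference level. Every library came from a single mouse. No group made an unmutated H3.3 from the same locus, so the mutants are compared with each other and with mice without a transgene. Which strain's allele a mouse carried at a given gene was not tested.

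H3.3 is the histone H3 variant that is put into chromatin outside of DNA replication, and in the mouse the genes H3f3a and H3f3b make the same H3.3 protein. Methylation of lysine 9 is a mark of silent chromatin, whereas methylation of lysine 36 is laid down over transcribed gene bodies and keeps Polycomb silencing out of them. Replacing either lysine with methionine is known to block the enzymes that methylate that residue on the other H3 molecules of the cell. In LSK cells, early progenitors lean towards the lymphoid lineages (marked by genes such as Dntt) or the myeloid ones (marked by granule enzymes such as Prtn3) before they leave the fraction.

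The starts of the reference coding sequences are shown because they hold both mutated residues and because reads of the transgene cannot be told apart from reads of similar sequences. The codons of lysine 9 and lysine 36 are in capitals, with residues counted from the amino acid after the starting methionine. H3f3c is a processed copy, a gene-like stretch of genome made from a spliced transcript.
H3f3a: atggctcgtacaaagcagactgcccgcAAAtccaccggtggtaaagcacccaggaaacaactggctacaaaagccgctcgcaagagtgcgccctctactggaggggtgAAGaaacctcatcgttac
H3f3b: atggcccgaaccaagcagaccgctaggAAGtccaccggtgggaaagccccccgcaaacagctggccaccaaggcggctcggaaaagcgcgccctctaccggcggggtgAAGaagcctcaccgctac
H3f3c: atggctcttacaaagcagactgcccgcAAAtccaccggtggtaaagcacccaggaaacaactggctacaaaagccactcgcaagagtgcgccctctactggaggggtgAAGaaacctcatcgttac
H3f3a and H3f3b had the same letter at 80.2% of these 126 bases, and H3f3a and H3f3c at 98.4%. These are mm10 reference letters, and the sequence of the transgene itself was not used here.

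Estimated depth was 15860000 to 48880000 reads in the K9M libraries, 36890000 to 50330000 in the K36M libraries and 16580000 to 33790000 in the controls. The first principal component of the 6 libraries, with 42.7% of the variance, put the K9M libraries at -25.8, -21.3 and -26 and the K36M libraries at 25.7, 11.4 and 36. K36M replicate 2 therefore lay nearest to the K9M group. Among the controls, replicate 3 stood apart in mature neutrophil genes, with a mean log2(RPKM + 0.5) of 6.90 against 3.02 to 5.01 in the other 8 libraries. Control replicate 1 stood apart in Ly6a, at 292 RPKM against 119 to 192 in the other 8 libraries. The count of calls is given with and without each of these libraries, and list counts without them are given for some of the lists. Sort markers were present throughout: Kit was at 53.3 to 102.5 RPKM, Ly6a (Sca1) at 119 to 292 and Cd34 at 286 to 432. Cd3e, a T cell marker of the removed lineages, was at or near 0 (0 to 0.168 RPKM) and Itgam (Mac1) was at 2.56 to 15.4 RPKM.

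K36M and K9M cells differed in 348 of the 12503 genes, which is 2.78% (limma, Benjamini-Hochberg adjusted p under 0.05 over all genes tested). Of these, 140 (1.12%) were higher and 208 (1.66%) were lower in K36M. Genes passing this threshold are named as called below. Differences are on the log2(RPKM + 0.5) scale, which understates the change of genes with low values, and their errors are standard errors of the fit. For 3521 genes (28.2%) the 3 K36M values did not overlap the 3 K9M values, with K36M higher in 1851 (14.8%) and lower in 1670 (13.4%). The median difference over all genes was 0.01. Without K36M replicate 2 there were 522 calls, of which 270 were higher. There were 240 without control replicate 3 and 428 without control replicate 1. With the control libraries left out of the fit altogether there were 278, of which 238 were among the 348.

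**Figure D1:**
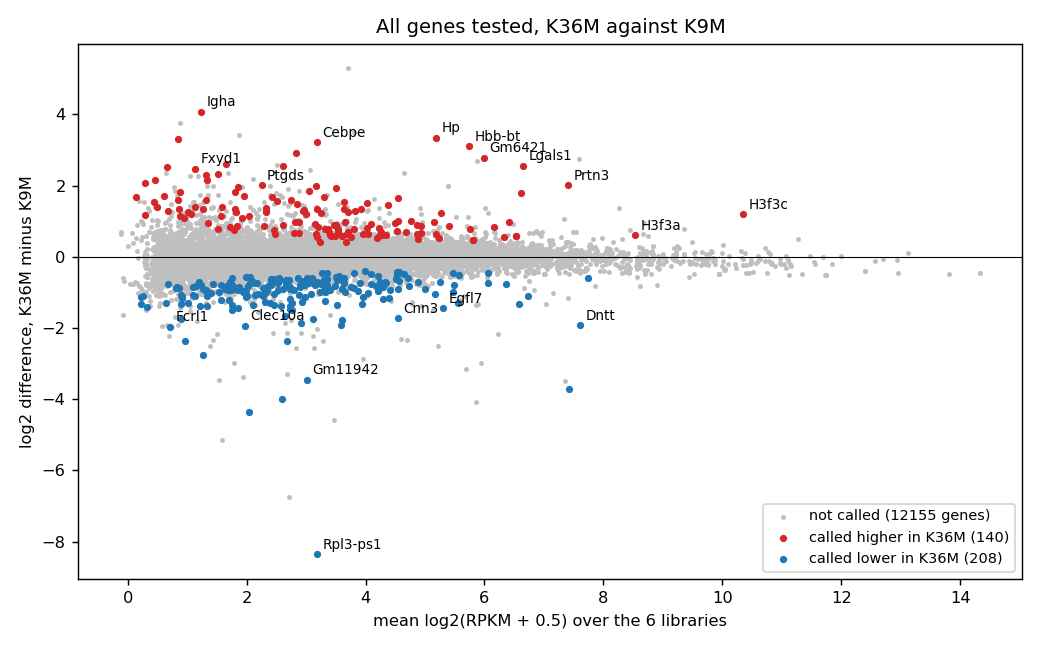
Each point is a gene, placed by its mean log2(RPKM + 0.5) over the 3 K36M and 3 K9M libraries (horizontal axis) and by its log2 difference, K36M minus K9M (vertical axis). The 140 red genes were called higher and the 208 blue genes called lower in K36M, and labels mark genes described in the text.

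The number of calls depended on single mice. Leaving out K9M replicates 1, 2 and 3 in turn left 42, 86 and 46 calls. Leaving out K36M replicates 1 and 3 left 36 and 43, whereas leaving out K36M replicate 2 raised the number to 522. A core of 23 genes was called whichever of the 9 libraries was left out. Among the genes named by rule it held Lgals1, Fxyd1, Ptgds and Gm6421 among the higher genes and Fcrl1, Clec10a, Cnn3, Egfl7, Rpl3-ps1 and Gm11942 among the lower ones. Chosen after their values were seen, Car3 and Card9 (higher by 1.35 and 1.35 on the log2 scale) and Itm2a, Hebp1 and Thsd1 (lower, at -1.25, -1.29 and -1.07) belonged to it too. Of the 56 called genes named by rule, the 46 others lost their call without at least 1 library, in most cases without K9M replicate 3 (44 lost) or K36M replicate 1 (42 lost). All 348 kept their direction in every one of these fits, but they were chosen for their difference in the same libraries. Leaving out a control library cannot change that difference. Of the 348, 19 met the filter on low values through the K36M libraries alone and 16 through the K9M libraries alone, with every library of the other group under 1 RPKM, so these had to differ. Among the genes named by rule they were Mefv, Fxyd1, Ncam1, Cx3cr1, Igha, Gm2423 and Gm12791 (K36M) and Fcrl1 and Rpl3-ps1 (K9M). The filter was set once on all 6 libraries and was not applied again when 1 was left out. With any 1 K36M library left out Fxyd1 would no longer have met it, and likewise Fcrl1 and Rpl3-ps1 for K9M. The place of these genes among the 23 therefore rests on a filter that kept the left-out library.

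H3.3 transcripts were higher in K36M cells at H3f3a but not at H3f3b. H3f3a stood at 319, 284 and 296 RPKM in K9M and at 489.8, 409 and 480.4 RPKM in K36M. The groups did not overlap, and the difference was 0.61 ± 0.14 (SE, n = 3 and 3; limma adjusted p = 0.0494), just inside the threshold. This call was lost without control replicate 3 (adjusted p = 0.076), without any one K9M library (0.128 to 0.159) and without K36M replicate 1 or 3 (0.149 and 0.173). H3f3b stood at 227, 204 and 205 RPKM in K9M and at 221, 213 and 178 RPKM in K36M, with overlapping groups (-0.06 ± 0.13, adjusted p = 0.854). Col1a1, where the transgenes sit, was at 0.0596 to 0.451 RPKM in all 9 libraries, below the filter.

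Of the 10 tested processed copies of H3f3a, 3 were called, all higher in K36M. H3f3c (chromosome 2, 119665626 to 119666036, 99% identical to H3f3a over the coding sequence) stood at 912, 807 and 871 RPKM in K9M and at 2311, 1588 and 2115 RPKM in K36M. All K36M libraries were above all K9M libraries (1.20 ± 0.19, adjusted p = 0.0197), and both groups were above the controls, at 214, 238 and 315 RPKM. Gm6421 (chromosome 13, 117358212 to 117358620, 99.3% identical) stood at 29.5, 15.6 and 28.5 RPKM in K9M, at 187.9, 147.8 and 163.7 RPKM in K36M and at 6.77 to 11.02 RPKM in the controls. Its difference of 2.78 ± 0.25 (adjusted p = 0.00428) was larger than that of any other copy and was called without any one of the 9 libraries. Of 36 such copies in the annotation (at least 90% identity over at least 300 bases), 16 were listed and 10 were tested. The 10 had differences from 0.40 to 2.78 with a median of 1.20, and Gm10257 and Gm3835 (0.40 and 0.45) lay below H3f3a. Named after their values were seen, those 2 were not called, and the third call was H3f3a-ps1 (1.39 ± 0.29, adjusted p = 0.0421). The call of H3f3c was lost without any one K9M library or without K36M replicate 1 or 3 (adjusted p up to 0.0882), and that of H3f3a-ps1 without any one mutant library or without control replicate 2 (up to 0.147). The sources used here do not say how reads that match H3f3a, its copies and the transgene were assigned, and these values may be shared between them.

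**Figure D2:**
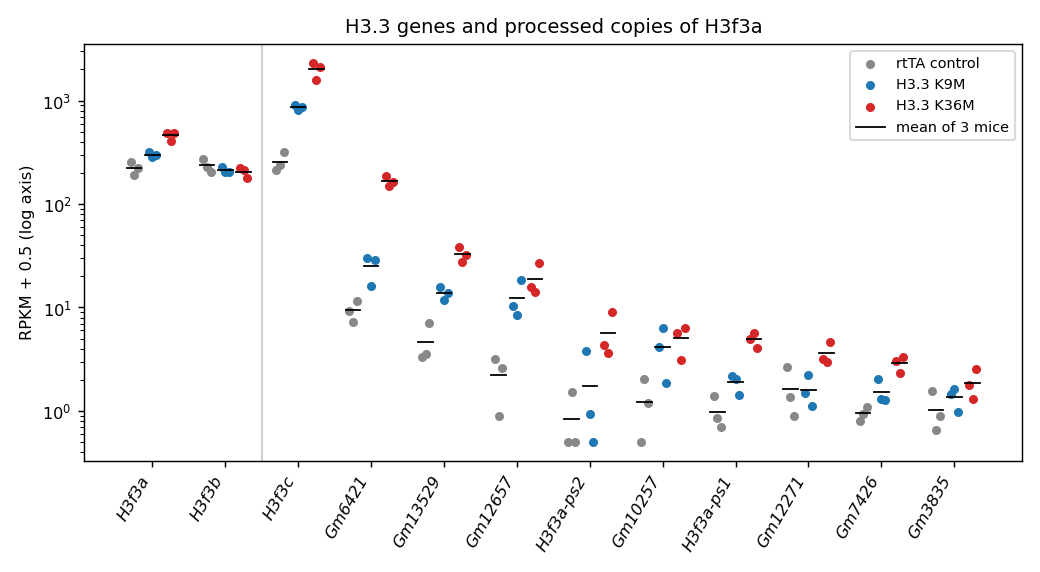
RPKM + 0.5 on a log axis for H3f3a, H3f3b and the 10 tested processed copies of H3f3a (right of the line), 1 point per mouse and a bar at the mean of 3. K36M values lie above K9M values at H3f3a, H3f3c and Gm6421 and overlap them at H3f3b.

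Calls in the lists of histone H3 machinery, read against 2.78% of all genes, were 2 of 12, 0 of 23, 0 of 20 and 1 of 31, and apart from the first these are near that background. Of 12 H3.3 genes and chaperones 2 were called, both higher: H3f3a and Asf1b, a chaperone of newly made H3-H4. Asf1b stood at 15.1, 17.1 and 12.9 RPKM in K9M and at 23.6, 21.02 and 22.7 RPKM in K36M (0.57 ± 0.12, adjusted p = 0.0396). The call was lost without any 1 library other than control replicate 1 and K36M replicate 2, with adjusted p of up to 0.141. Hira, the core of the H3.3 loading complex in genes, and Atrx and Daxx, which load H3.3 at repeats, had differences of 0.10, 0.01 and 0.28 and were not called. None of 23 genes of the H3K9 methylation machinery was called (median 0.01), the smallest p being at Ehmt2 (0.28 ± 0.13, adjusted p = 0.278) and Kdm4b (-0.28 ± 0.16, adjusted p = 0.385). None of 20 genes of the H3K36 machinery was called either (median 0.13), with the smallest p at Zmynd11, a reader of that mark (-0.42 ± 0.16, adjusted p = 0.19), and Smyd2 (-0.35 ± 0.14, adjusted p = 0.209). Among 31 Polycomb genes 1 was called: Rnf2, the ubiquitin ligase RING1B of Polycomb complex 1, fell by 0.42 (SE 0.09, adjusted p = 0.0465). It stood at 24.6 to 28.1 RPKM in K9M and 18.5 to 20.5 RPKM in K36M, and its call was lost without any 1 library other than control replicate 1 (up to 0.178). H2afy, which encodes the histone variant macroH2A1, fell from 269, 257 and 265 RPKM to 180.2, 152.5 and 189 RPKM (-0.60 ± 0.11, adjusted p = 0.0312), a call lost without any K9M library or without K36M replicate 1 or 3 (adjusted p up to 0.118).

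Genes of granulocyte and monocyte progenitors were among the largest rises in K36M. Cebpe, the transcription factor of granulocyte maturation, stood at 1.64, 3.72 and 2.44 RPKM in K9M and at 35.3, 15.5 and 37.0 RPKM in K36M. Prtn3 (proteinase 3, an enzyme of the first granules) stood at 56.1, 129 and 80.8 RPKM in K9M and at 459, 171 and 501 RPKM in K36M. In both genes K36M replicate 2 was the lowest of its group and still above every K9M library. The differences were 3.22 ± 0.44 for Cebpe (adjusted p = 0.0138) and 2.02 ± 0.41 for Prtn3 (adjusted p = 0.0406). Hp, which encodes the haemoglobin-binding protein haptoglobin, stood at 10.0, 14.7 and 8.70 RPKM in K9M and at 188, 49.8 and 164 RPKM in K36M (3.35 ± 0.56, adjusted p = 0.0223). The control means lay between the mutant means in these 3 genes, with libraries at 3.46 to 10.5, 106 to 139 and 13.7 to 49.4 RPKM that partly overlapped K9M. Mefv, which encodes the inflammasome protein pyrin, rose by 2.16 (adjusted p = 0.0275). It met the filter through the K36M libraries alone, so a rise was built into its selection. Trem3, a receptor of myeloid cells, rose by 2.92 (adjusted p = 0.039). Tyrobp, the signalling adaptor that such receptors use, stood at 57.2, 43.2 and 58.0 RPKM in K9M and at 211, 121 and 234 RPKM in K36M (1.79 ± 0.35, adjusted p = 0.0342). The calls of these 6 genes were lost without K9M replicate 1 or 3 and without K36M replicate 1 or 3, with adjusted p of up to 0.069 for Cebpe, 0.153 for Prtn3, 0.106 for Hp, 0.152 for Trem3, 0.119 for Mefv and 0.133 for Tyrobp. All of them except Cebpe were also lost without K9M replicate 2, and Prtn3 without control replicate 2 or 3 too.

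Counted over whole lists, 2 of 19 primary granule and early myeloid genes were called, Cebpe and Prtn3, and the median difference was 0.74 against 0.01 over all genes. In 17 of the 19 the K36M mean was higher, against 6432 of all 12503 genes, and 7 had groups that did not overlap with K36M higher, against 14.8% of all genes. Called higher were 1.12% of all genes. Elane (neutrophil elastase) stood at 27.9, 219.8 and 63.3 RPKM in K9M and at 634, 218 and 898 RPKM in K36M, so K36M replicate 2 lay below K9M replicate 2 (2.76 ± 0.76, adjusted p = 0.088). Mpo, Ctsg and Ms4a3 overlapped in the same way. Without K36M replicate 2 the count was 8 of 19 and the median 1.07. Without control replicate 3 it was 3, with Prtn3 lost and Igsf6 and Clec12a added. Among 17 monocyte and macrophage genes 2 were called, with a median of 0.92: Cx3cr1, the receptor for fractalkine, rose by 2.15 (SE 0.40, adjusted p = 0.03), from 0.492 to 0.992 RPKM in K9M to 2.68 to 7.58 RPKM in K36M. Cx3cr1 met the filter through the K36M libraries alone, so a rise was built into its selection. Ly86 (MD-1) rose by 1.94 (SE 0.38, adjusted p = 0.0359). Csf1r, the receptor for the macrophage growth factor, had 3.04 to 3.80 RPKM in K9M against 6.35 to 23.6 RPKM in K36M and did not pass the threshold (adjusted p = 0.0627). Without K36M replicate 2, 5 of the 17 were called, and the calls of Cx3cr1 and Ly86 were lost without any one K9M library or without K36M replicate 1 or 3 (adjusted p up to 0.12 and 0.141). The summed level of the 20 listed monocyte genes was 127.5 to 173 RPKM in K9M, 225 to 546 in K36M and 166 to 391 in the controls.

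Of 18 mature neutrophil genes tested, 13 had a lower mean in K36M and 1 was called, in the other direction. Padi4, a deiminase of neutrophils, stood at 5.76, 5.91 and 7.4998 RPKM in K9M and at 9.88, 11.4 and 14.4 RPKM in K36M (0.84 ± 0.16, adjusted p = 0.0319, and up to 0.122 without any one K9M library or K36M replicate 1 or 3). The list had a median of -0.40, and its summed level was 736 to 1460 RPKM in K9M, 421 to 749 in K36M and 998.5 to 7364 in the controls. Ltf and Chi3l3, both of late granules or mature cells, stood at 15.8 to 34.1 and 16.9 to 30.4 RPKM in K9M against 2.61 to 6.05 and 2.05 to 4.74 RPKM in K36M. Neither passed in the fit of all 9 libraries (adjusted p = 0.121 and 0.0741), and both were called without control replicate 3. In bulk RNA, fewer cells of a kind and less RNA per cell cannot be told apart, and this holds for all lineage genes here.

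**Figure D3:**
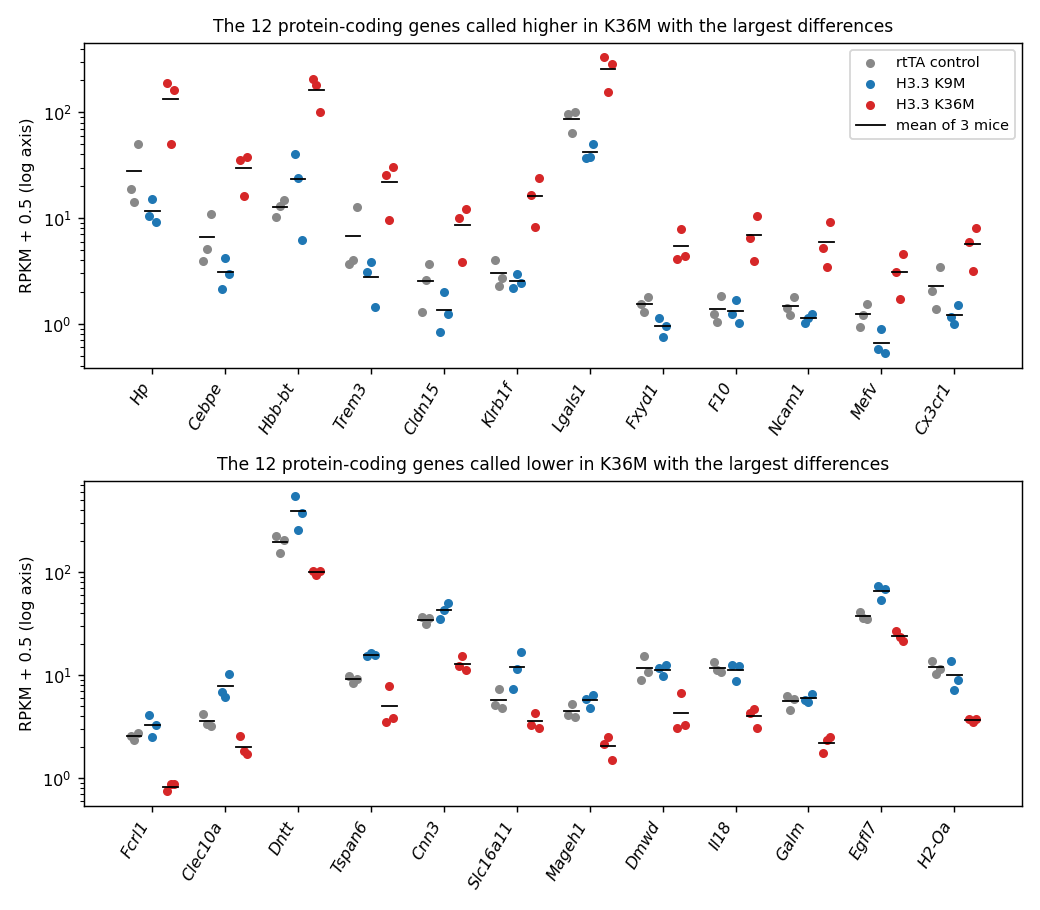
RPKM + 0.5 on a log axis for the 12 largest rises (top) and 12 largest falls (bottom) among called protein-coding genes, 1 point per mouse and a bar at the mean of 3. Only genes whose K36M and K9M values did not overlap were taken, and genes named only by clone or model numbers were left out. In the top panel K36M replicate 2 is often the lowest red point, and in the bottom panel the K36M values of Fcrl1, Dntt and H2-Oa lie close together.

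Lgals1, Ptgds and Fxyd1 were higher in K36M and called whichever library was left out. Lgals1 (galectin-1, a secreted lectin, chromosome 15, 78926725 to 78930465) stood at 36.8, 37.5 and 49.7 RPKM in K9M, at 329.8, 155.8 and 284 RPKM in K36M and at 62.6 to 99.9 RPKM in the controls. The K36M values were all above the other 6, and the K9M values were all below (2.56 ± 0.29, adjusted p = 0.00908). Ptgds (prostaglandin D synthase, chromosome 2, 25466709 to 25470046) stood at 2.20, 1.54 and 1.93 RPKM in K9M and at 9.16, 9.68 and 8.38 RPKM in K36M, and the 3 K36M mice lay close together (2.01 ± 0.21, adjusted p = 0.00702). Fxyd1 (phospholemman, a partner of the sodium pump) stood at 0.642, 0.253 and 0.449 RPKM in K9M and at 3.61, 7.38 and 3.85 RPKM in K36M; here K36M replicate 2 was the highest of its group (2.48 ± 0.29, adjusted p = 0.00918). Fxyd1 met the filter through the K36M libraries alone, so a difference was built into its selection. With any 1 of these left out it would no longer have met the filter, which was not applied again. Largest adjusted p-values over leaving out each library were 0.0485 for Lgals1, 0.0458 for Ptgds and 0.046 for Fxyd1.

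The other large rises were in genes of low level in K9M. Cldn15 (a claudin of tight junctions), Klrb1f (a receptor of the natural killer gene complex), F10 (coagulation factor X) and Ncam1 (a cell adhesion molecule) rose by 2.61, 2.56, 2.33 and 2.29, with adjusted p from 0.0154 to 0.0377. Their K9M libraries lay between 0.338 and 2.43 RPKM and their K36M libraries between 2.98 and 23.5 RPKM. A rise was built into the selection of Ncam1, which met the filter through the K36M libraries alone. These calls were lost without K9M replicate 1 or 3 or without K36M replicate 1, among others, and adjusted p reached 0.149 for Cldn15, 0.0709 for Klrb1f, 0.0832 for F10 and 0.0643 for Ncam1. Il18r1, a subunit of the interleukin 18 receptor and 1 of 29 cytokine receptors, was the member of its list called: it stood at 1.45, 3.51 and 2.96 RPKM in K9M and at 8.01, 9.04 and 10.6 RPKM in K36M (1.68 ± 0.27, adjusted p = 0.0197, up to 0.0906 without K9M replicate 3 or K36M replicate 1 or 3). Its ligand moved the other way: Il18, the cytokine itself, fell from 11.996, 8.24 and 11.9 RPKM to 3.85, 4.17 and 2.60 RPKM (-1.48 ± 0.20, adjusted p = 0.0121, at most 0.0564, lost without K9M replicate 1 or 3). Without K36M replicate 2, 3 of the 29 cytokine receptors were called higher and 1 lower.

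Dntt and Cnn3, of the lymphoid priming list, were among the largest falls, while 9 of 10 B lineage genes had a higher mean in K36M and none of them was called. Dntt encodes terminal deoxynucleotidyl transferase, which adds bases at antigen receptor joints and marks lymphoid-primed progenitors. It stood at 552, 259 and 378 RPKM in K9M and at 102, 94.3 and 103 RPKM in K36M, and no K36M library came near the lowest K9M library (-1.92 ± 0.25, adjusted p = 0.0112). Controls stood between, at 227, 155 and 208 RPKM. Cnn3 (calponin 3, an actin-binding protein, chromosome 3, 121426497 to 121458207) stood at 34.9, 43.0 and 49.7 RPKM in K9M and at 11.9, 14.8 and 10.8 RPKM in K36M, with controls at 30.9 to 36.3 RPKM (-1.73 ± 0.16, adjusted p = 0.00428). Cnn3 was called without any one library (adjusted p at most 0.0363), and Dntt lost its call only without K36M replicate 1 (0.0573). These were the 2 called of 18 lymphoid priming genes, which had a median of -0.14, where 1.66% of all genes were called lower. The groups did not overlap in 5 of the 18 with K36M lower and in 2 with K36M higher. Over all genes these shares were 13.4% and 14.8%. Of the 18, 8 had a higher and 10 a lower mean in K36M: Ccr9 and Rag2 did not overlap between groups and did not pass (adjusted p = 0.0953 and 0.148), and Flt3 and Il7r overlapped.

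Fcrl1, an Fc receptor-like protein of B cells, stood at 3.62, 2.00 and 2.79 RPKM in K9M, at 0.244, 0.373 and 0.371 RPKM in K36M and at 1.85 to 2.22 RPKM in the controls (-1.97 ± 0.21, adjusted p = 0.00832). It met the filter through the K9M libraries alone, so a fall was built into its selection. Clec10a, a galactose-binding lectin of macrophages and dendritic cells, stood at 6.43, 5.70 and 9.83 RPKM in K9M and at 2.06, 1.32 and 1.21 RPKM in K36M (-1.93 ± 0.23, adjusted p = 0.0109). Both were called without any one of the 9 libraries, but with any 1 K9M library left out Fcrl1 would no longer have met the filter. H2-Oa, a chain of the molecule that tunes peptide loading of MHC class II, fell by 1.39 (SE 0.22, adjusted p = 0.0193), from 6.74 to 13.2 RPKM in K9M to 3.00 to 3.28 RPKM in K36M, a call lost without K9M replicate 3 or K36M replicate 1 or 3 (up to 0.0828). Of 9 tested dendritic cell and MHC class II genes none was called, with a median of -0.34 and the smallest p at H2-Ab1 (-0.66, adjusted p = 0.124) and H2-Eb1 (-1.04, adjusted p = 0.167). None of 9 T and NK lineage genes was called (median -0.31), with Gata3 (-0.61, adjusted p = 0.109) and Lck (-0.62, adjusted p = 0.128) of smallest p.

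Stem cell genes were lower in K36M in 25 of 38 tested, with a median of -0.27, and 2 were called. Hoxa10, a homeobox factor of blood progenitors, stood at 2.39, 2.57 and 3.14 RPKM in K9M and at 0.543, 1.29 and 0.642 RPKM in K36M (-1.31 ± 0.25, adjusted p = 0.0309). Esam, an adhesion molecule on stem cells and endothelium, stood at 10.5, 8.36 and 8.70 RPKM in K9M and at 4.30, 5.04 and 4.28 RPKM in K36M (-0.94 ± 0.17, adjusted p = 0.0285). Both calls were lost without any one K9M library or without K36M replicate 1 or 3 (adjusted p up to 0.121 and 0.119). In 15 of the 38 the groups did not overlap with K36M lower, which was so for 13.4% of all genes. Those included Nkx2-3 (adjusted p = 0.0501), Cd34 (-0.47, adjusted p = 0.0756), Lmo2 (-0.41, adjusted p = 0.0797) and Hlf (-0.65, adjusted p = 0.0953), while Mecom had the opposite sign (0.45, adjusted p = 0.138). Without K36M replicate 2, 4 were called, Hoxa10, Esam, Hlf and Nkx2-3, with a median of -0.39. Kit, a sort marker, was at 81.1 to 92.0 RPKM in K9M and 53.3 to 74.2 RPKM in K36M and did not pass (-0.40 ± 0.14, adjusted p = 0.155), and Ly6a overlapped (0.01 ± 0.33, adjusted p = 0.991). Whether the sorted cells had the same make-up in both groups was not tested.

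Egfl7, a secreted factor of endothelium and stem cells (chromosome 2, 26580014 to 26593120), stood at 73.5, 53.9 and 67.8 RPKM in K9M, at 26.5, 23.2 and 21.1 RPKM in K36M and at 34.7 to 41.1 RPKM in the controls. The 3 groups did not overlap one another, and the fall of 1.44 (SE 0.14, adjusted p = 0.00502) was called without any one library. The other large falls were Tspan6 (a tetraspanin, -1.74), Slc16a11 (a monocarboxylate carrier family member, -1.67), Mageh1 (-1.49), Dmwd (-1.48) and Galm (galactose mutarotase, -1.44), with adjusted p from 0.0112 to 0.0406. In Tspan6 the K9M values were within 14.95 to 15.8 RPKM, whereas K36M replicate 2, at 7.31 RPKM, was above the other K36M libraries at 3.03 and 3.38 RPKM. Galm lost its call only without K9M replicate 3 (0.0538), and the other 4 lost theirs without K9M replicate 3 or K36M replicate 1, among others (adjusted p up to 0.0787 for Tspan6, 0.119 for Slc16a11, 0.0705 for Mageh1 and 0.154 for Dmwd). Cpa3, a mast cell carboxypeptidase also made by early progenitors, fell from 39.0, 46.9 and 44.1 RPKM to 23.7, 23.8 and 20.7 RPKM (-0.92 ± 0.15, adjusted p = 0.0212, up to 0.102 without any K9M library or without K36M replicate 1 or 3). With Ptgds, which went the other way, it made up the 2 calls among 8 tested mast cell, basophil and eosinophil genes. Over all genes 2.78% were called. The list median was 0.705, and 5 of the 8 had a higher mean in K36M. The summed level of the 21 genes of that list was 112 to 120.3 RPKM in K9M and 100.4 to 118 in K36M, and Mcpt1 and Ear1 were at 0 in all 6 libraries.

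**Figure D4:**
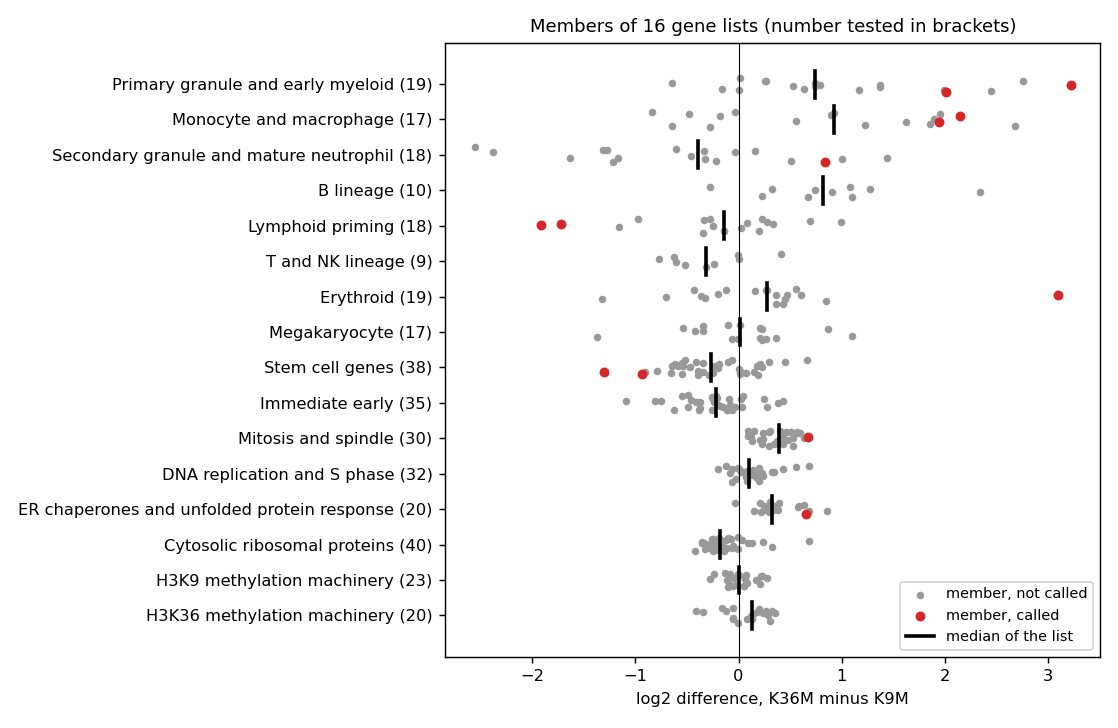
Log2 differences (K36M minus K9M, horizontal axis) of the members of 16 gene lists, 1 point per tested gene, with called genes in red and a bar at the median. The medians of the early granule, monocyte and B lineage lists are between 0.74 and 0.92, all 30 mitosis genes are above 0, and few members are red.

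Secretory pathway and mitosis genes showed small differences of one sign over most of the list, with few calls. Of 20 genes of endoplasmic reticulum chaperones and the unfolded protein response, which fold secreted proteins, 19 had a higher mean in K36M. In 15 the groups did not overlap with K36M higher, against 14.8% of all genes, and the median was 0.32. The called gene was Xbp1, a transcription factor of that response, at 22.6, 20.1 and 26.5 RPKM in K9M and 34.6, 34.2 and 40.3 RPKM in K36M (0.65 ± 0.13, adjusted p = 0.0367). Without any K9M library, without K36M replicate 1 or 3 or without control replicate 3 that call was lost (adjusted p up to 0.144). Calr (calreticulin) stood at 298, 344 and 334 RPKM in K9M and at 556, 398 and 581 RPKM in K36M, and did not pass (0.64 ± 0.15, adjusted p = 0.0625). Hspa5 (BiP) stood at 143.5, 161 and 151 RPKM against 219, 174.5 and 208 RPKM (0.40 ± 0.14, adjusted p = 0.174). Trib3 was the member with a negative sign (-0.03). Without K36M replicate 2, 7 of the 20 were called, and without control replicate 3 none was. Without control replicate 1, 2 were called, Sdf2l1 and Xbp1. Calr is on the early granule list as well. K36M replicate 2 was the lowest of its group in Calr and Hspa5 as it was in Cebpe, Prtn3 and Ly86, and the part of early myeloid and monocyte cells in the difference was not tested.

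Some promoters of the list hold a known control element, shown here for Hspa5 and Calr, and a factor motif is shown for Prtn3. The sequences are the 250 bases before the start of each gene in RefSeq (GRCm38.p6), written in the direction of the gene, with the matched motif in capitals. The ER stress response element was searched as CCAAT and CCACG with 9 bases between them and the PU.1 motif as GAGGAAGT, on both strands.
Hspa5 (chr2:34771840-34772089, plus strand): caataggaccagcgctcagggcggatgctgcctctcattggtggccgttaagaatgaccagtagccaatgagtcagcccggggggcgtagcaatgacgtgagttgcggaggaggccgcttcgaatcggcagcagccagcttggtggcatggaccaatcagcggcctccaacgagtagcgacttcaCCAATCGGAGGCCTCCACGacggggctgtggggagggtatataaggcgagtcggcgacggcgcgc
Calr (chr8:84846932-84847181, minus strand): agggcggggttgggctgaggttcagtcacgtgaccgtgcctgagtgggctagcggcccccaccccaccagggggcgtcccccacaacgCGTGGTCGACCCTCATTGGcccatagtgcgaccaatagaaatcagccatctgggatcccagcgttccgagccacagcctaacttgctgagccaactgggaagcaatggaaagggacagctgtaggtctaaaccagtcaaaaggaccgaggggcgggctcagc
Prtn3 (chr10:79879417-79879666, plus strand): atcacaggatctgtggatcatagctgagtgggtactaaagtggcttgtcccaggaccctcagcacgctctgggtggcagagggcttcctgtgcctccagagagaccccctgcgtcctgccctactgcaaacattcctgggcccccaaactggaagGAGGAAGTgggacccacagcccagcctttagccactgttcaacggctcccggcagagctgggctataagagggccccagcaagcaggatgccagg
Of 20 list genes, 18 had a promoter in the table and 7 of these (38.9%) held the ER stress element, against 13 of 8461 promoters of tested genes (0.2%), which include these 7. The element was searched as one known for such genes, so its share in the list does not bear on the difference between K36M and K9M. None of 97 promoters of genes called higher and none of 145 of genes called lower held it. The PU.1 motif was in 4 of 17 early granule promoters (23.5%), in 4 of 97 of the genes called higher (4.1%) and in 3.2% of all. TTNCNNAA, bound by C/EBP factors, was in 36.1% of the promoters of genes called higher, 40.7% of those called lower and 32.8% of all. CAGGTG, an E-box, was in 22.7% of the first set, 29 of 145 of the second and 17.4% of all, and TGANTCA, the AP-1 motif, in 12.4%, 7.6% and 5.2%. A match describes the letters only.

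All 30 mitosis and spindle genes had a higher mean in K36M, with differences from 0.09 to 0.67 and a median of 0.39, where 6432 of all 12503 genes had a higher mean. In 17 the groups did not overlap with K36M higher, against 14.8% of all genes. Plk1, a kinase of mitotic entry, was the call: 25.0, 26.2 and 19.96 RPKM in K9M and 37.8, 33.2 and 43.1 RPKM in K36M (0.67 ± 0.13, adjusted p = 0.0369). It was lost without control replicate 3, any K9M library or K36M replicate 1 or 3 (adjusted p up to 0.141). Without control replicate 1, Kif23 and Incenp were called beside Plk1. Aurka (0.64 ± 0.14, adjusted p = 0.0516) and Ccnb1 (0.56 ± 0.14, adjusted p = 0.063) lay just outside, and both were called without K36M replicate 2. DNA replication genes differed less: none of 32 was called, the median was 0.10, and the smallest p-values were at Ccne1 (0.69, adjusted p = 0.0597) and Rrm2 (0.56, adjusted p = 0.0667). None of 15 CDK inhibitors and D cyclins was called (Ccnd3 0.39, adjusted p = 0.123; Cdkn2d 0.33, adjusted p = 0.126).

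**Figure D5:**
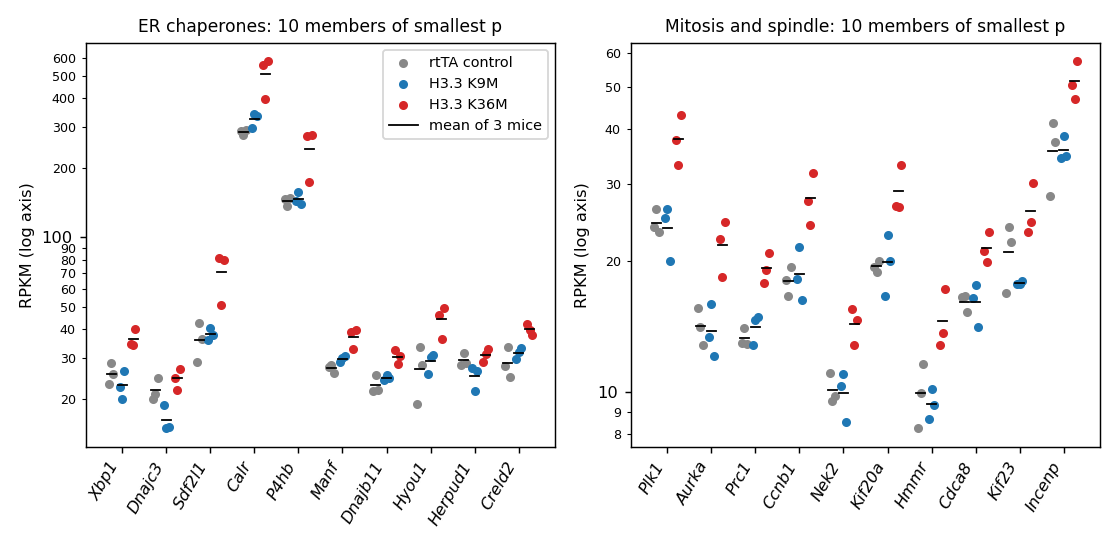
RPKM on a log axis for the 10 genes of smallest p in the endoplasmic reticulum list (left) and the mitosis list (right), 1 point per mouse and a bar at the mean of 3. Xbp1 and Plk1 were called, and the other 18 genes shown did not pass the threshold.

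Single members of other lists were called. In the interferon response list of 42 tested genes, Gbp2 (a guanylate-binding protein) fell from 21.8, 16.5 and 22.1 RPKM to 8.82, 10.6 and 10.5 RPKM (-0.97 ± 0.15, adjusted p = 0.0185). Ifit2, which binds viral RNA, fell from 10.1, 8.89 and 9.39 RPKM to 5.13, 5.66 and 5.45 RPKM (-0.75 ± 0.12, adjusted p = 0.0209). The list median was 0.04 and 23 of 42 had a higher mean in K36M, and the other 40 were not called. In metabolism, Pdk1, the kinase that holds pyruvate back from the mitochondria, fell by 0.82 (21.95 to 25.4 RPKM against 12.04 to 13.8 RPKM; adjusted p = 0.0222). It was the call among 18 glycolysis genes in the fit of all 9 libraries, with a list median of 0.09. Without K36M replicate 2, 4 of the 18 were called higher and 2 lower, and the median was 0.20. Ddx4, the RNA helicase Vasa of germ cells, fell from 8.28, 5.59 and 9.92 RPKM to 2.27, 4.23 and 2.42 RPKM (-1.29 ± 0.26, adjusted p = 0.0367), and only 3 of the 24 listed germline genes passed the filter. Among 294 tested genes named Zfp, 1 was called higher, Zfp385a (0.61), and 4 lower: Zfp428 (-0.91), Zfp395 (-0.92), Zfp219 (-0.60) and Zfp658 (-0.75), the last named after its values were seen. These 5 of 294 are a smaller share than the 2.78% of all genes. Each of the calls named here from the fit of all 9 libraries was lost without K9M replicate 3. Adjusted p reached 0.0748 for Gbp2, 0.0947 for Ifit2, 0.0999 for Pdk1, 0.144 for Ddx4, 0.119 for Zfp385a, 0.0843 for Zfp428, 0.119 for Zfp395, 0.166 for Zfp219 and 0.156 for Zfp658.

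No member was called in the lists of cytosolic ribosomal proteins (40 genes, median -0.18, 34 with a lower mean in K36M), replication-dependent histones (33, median -0.33), immediate early genes (35, median -0.22), nuclear oxidative phosphorylation (35, median 0.02), the mitochondrial genome (13, median 0.02), heat shock proteins (14, median 0.07), p53 targets (20, median 0.02), DNA methylation and TET enzymes (12, median 0.22), heme synthesis (8, median 0.12), imprinted genes (11, median -0.16), megakaryocyte genes (17, median 0.01) and stroma and endothelium (7, median -0.20). Pf4, platelet factor 4 and the megakaryocyte gene of smallest p, stood at 60.6, 50.3 and 37.3 RPKM in K9M and at 18.3, 26.9 and 12.7 RPKM in K36M and did not pass (-1.37 ± 0.32, adjusted p = 0.0573). Among immediate early genes Dusp2 (-1.09, adjusted p = 0.0853) and Zfp36l2 (-0.81, adjusted p = 0.0953) had the smallest p, with K36M replicate 2 the highest K36M library in both, and without that library 4 of the 35 were called lower, these 2 among them. Without it Pf4, Alas1 (heme synthesis), Emcn (endothelium), Rrm2 (DNA replication) and Sgce (imprinted) were called as well. Of 22 Hox genes 8 were tested and Hoxa10 was the call, and Esam was the call among 20 genes of marrow retention and adhesion. Y-linked genes were expressed in all 9 libraries and Xist was at most 1.30 RPKM.

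Several large differences were in processed pseudogenes and an immunoglobulin segment, where the counting of reads with several matches matters. Rpl3-ps1, a copy of a ribosomal protein gene on the X chromosome, stood at 113, 390.2 and 100.3 RPKM in K9M and was listed at 0 in all 3 K36M and all 3 control libraries (adjusted p = 7.91e-05). It met the filter through K9M alone, as Igha, Gm2423 and Gm12791 did through K36M alone. Gm11942, on chromosome 4, stood at 31.0, 25.3 and 23.0 RPKM in K9M, at 2.45, 1.42 and 2.08 RPKM in K36M and at 2.21 to 2.80 RPKM in the controls (-3.45 ± 0.18, adjusted p = 7.91e-05). Both were high in K9M alone, and both stayed called without any one library. With any 1 K9M library left out, though, Rpl3-ps1 would no longer have met the filter. Gm10093 and Rps3a2 fell by 3.99 and 3.70 (adjusted p = 0.0347 and 0.0465), Rps3a2 from 145, 1328 and 1216 RPKM to 57.8, 36.6 and 48.9 RPKM, and both lost their call without K36M replicate 1, 2 or 3, among others (adjusted p up to 0.135 and 0.157). Gm2423 and Gm12791 were at 0 in K9M replicates 1 and 3 and at 0.24 and 0.649 RPKM in K9M replicate 2, against 4.33 to 6.20 and 2.03 to 4.31 RPKM in K36M (adjusted p = 0.0154 and 0.023, up to 0.0643 and 0.117 without K9M replicate 1 or 3 or K36M replicate 1 or 3). In the controls Gm2423 was at 3.005 to 15.5 RPKM, overlapping K36M, and Gm12791 at 0.428 to 1.49 RPKM, below every K36M library. Processed pseudogenes made up 18 of the 348 calls (5.2%) and 6.7% of the genes tested, and protein-coding genes 320 calls (92.0%). Chosen after its values were seen, Gm5483, a protein-coding gene of the stefin cluster, was called lower by a larger difference than any of these except Rpl3-ps1 (-4.36, adjusted p = 0.039). It stood at 58.3, 6.80 and 14.4 RPKM in K9M and at 1.02, 0.198 and 0.193 RPKM in K36M, and the call was lost without any one mutant library (adjusted p up to 0.146). With pseudogenes left out, 435 genes were called among 11556.

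Igha, the constant segment of immunoglobulin A, stood at 0.0198, 0.0343 and 0.183 RPKM in K9M, at 2.74, 24.0 and 11.04 RPKM in K36M and at 9.57, 23.7 and 59.3 RPKM in the controls. It was called higher in K36M (4.08 ± 0.76, adjusted p = 0.0295, up to 0.12 without any one K9M library or K36M replicate 3), and the K9M libraries were those apart from the other 6. None of 10 tested B lineage genes was called. Their median was 0.82, 9 had a higher mean in K36M, and the smallest p-values were at Cd79a (1.10, adjusted p = 0.102) and Vpreb1 (1.27, adjusted p = 0.137), the latter called without control replicate 3. Summed over 16 listed B lineage genes the level was 195 to 270.4 RPKM in K9M, 219.96 to 261 in K36M and 295 to 564 in the controls, with no member at 0 in all 6 libraries. Igkc, the kappa light chain, ranged from 0.951 to 35.0 RPKM in K9M and from 47.5 to 72.1 RPKM in K36M (adjusted p = 0.264). B cells carry B220, which the sort removed, and the part of such cells in the Igha difference was not tested.

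Hbb-bt, an adult beta globin gene, stood at 40.1, 23.7 and 5.66 RPKM in K9M and at 206, 181 and 101.3 RPKM in K36M, with controls at 9.80 to 14.4 RPKM (3.10 ± 0.59, adjusted p = 0.0317). The neighbouring Hbb-bs did not follow, at 20.4, 24.9 and 20.9 RPKM in K9M and 16.5, 19.98 and 16.04 RPKM in K36M (-0.33, adjusted p = 0.536), nor did the alpha globin genes Hba-a1 (-0.43, adjusted p = 0.529) and Hba-a2 (-0.70, adjusted p = 0.433). Hbb-bt was the call among 19 tested erythroid genes, whose median was 0.28, and it was lost without K9M replicate 2 or any one K36M library (adjusted p up to 0.122). Without K36M replicate 2 the call of the list was Car1, lower in K36M. The summed erythroid level was 603 to 793 RPKM in K9M and 529.6 to 874 in K36M. Hbb-bt and Hbb-bs are near-identical genes, so reads may be split between them.

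Set against the controls, the called genes mostly had the control mean between the mutants and nearer to K9M. The control mean lay between the K36M and K9M means in 288 of the 348 (82.8%), above both in 31 and below both in 29, against 37.4% between over all tested genes. The 348 were chosen for the distance between these 2 means, so the first share is a description. On the log2 scale it was nearer to K9M in 285 (81.9%), against 7656 of all 12503 tested genes (61.2%). From the same fit, 118 of the 348 were also called between K36M and the controls and 8 between K9M and the controls. Over all genes, 203 (1.62%) were called for K36M against the controls, 79 (0.632%) higher and 124 (0.992%) lower. For K9M against the controls 17 (0.136%) were called, 13 (0.104%) higher and 4 (0.0320%) lower. These comparisons share libraries with one another and with the contrast that chose the 348. For Cnn3 the differences were -1.43 for K36M minus control (adjusted p = 0.00864) and 0.30 for K9M minus control (adjusted p = 0.748). For Egfl7 they were -0.64 (adjusted p = 0.0606) and 0.80 (adjusted p = 0.108), so neither mutant passed against the controls although they differed from each other. For Lgals1 they were 1.53 (adjusted p = 0.0394) and -1.03 (adjusted p = 0.444), and for Ptgds 2.66 (adjusted p = 0.00159) and 0.65 (adjusted p = 0.531). Rpl3-ps1 and Gm11942 were the reverse kind, called for K9M against the controls (adjusted p = 0.000108 and 0.000161). Igha and Gm2423 were also called for K9M against the controls, both lower in K9M (-5.41 and -3.61, adjusted p = 0.038 and 0.0329). Neither was called for K36M against the controls (adjusted p = 0.374 and 0.781).

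By position, calls were spread over the chromosomes, from 1.3% of the tested genes on chromosome 18 to 4.07% on chromosome 6, and none of 36 mitochondrial and 7 Y-linked genes was called. Chromosome 6 had 25 calls, 20 of them lower. Called genes next to each other in the order of tested genes and changed in the same direction made 14 pairs, and 1 pair was opposite. Chosen after their values were seen, the Gimap genes, GTPases of lymphocytes in 1 cluster on chromosome 6, held 3 calls: Gimap1, Gimap5 and Gimap6 fell by 0.99, 1.17 and 1.04 (adjusted p = 0.0255, 0.0342 and 0.0471). Gimap1 stood at 67.3, 53.3 and 66.8 RPKM in K9M and at 28.7, 39.9 and 25.9 RPKM in K36M. These calls were lost without K9M replicate 1 or 3 or K36M replicate 1 or 3, among others (adjusted p up to 0.109, 0.132 and 0.169). Within the same cluster Gimap4, Gimap7 and Gimap8 overlapped between groups, Gimap9 had -0.52 (adjusted p = 0.159), and Gimap3 had the opposite sign (1.23, adjusted p = 0.184).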

How the data were processed

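RNA was sequenced from LSK cells of 9 mice. The authors deposited 1 table of RPKM values, per the file headers 1 column per library. CASAVA 1.7, STAR and the mm10 build are named in the submitters' processing notes; no source used here gives the STAR version or the rule for reads with several matches. Per the labels the molecule was polyA RNA, and the kit was TruSeq for total RNA. Identifiers were matched to GENCODE M21 on mm10, 37607 by identifier and 146 by symbol, with 129 unmatched; 12058 genes were at 0 in every library. Depth was estimated from the steps of low values, 54.2% to 56.0% of which were whole multiples within 0.02 (4.0% by chance), too few for a test on counts.

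Values were analysed as log2(RPKM + 0.5). limma 3.58.1 in R 4.3.3 fitted 3 group means to all 9 libraries with a mean-variance trend (6 residual and 3.18 prior degrees of freedom), two-sided, with Benjamini-Hochberg adjustment over the 12503 genes. With 3 mice a group, p-values set each difference against the spread between mice. That spread was pooled over all 9 libraries, controls included, and drawn towards the trend, so leaving out a control changed the calls. Copies of H3f3a were found with blastn 2.17.0.

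Named by rule were H3f3a, H3f3b, Col1a1, Ly6a and Kit; the 12 largest rises and falls among called protein-coding genes with separate groups, leaving out clone and model numbers; the 4 largest rises and falls among called pseudogenes and immunoglobulin segments; the 6 called protein-coding genes of highest level; and for each list up to 4 called members, or the 2 of smallest p. Other genes given with values, such as Elane, Csf1r, Ltf, Chi3l3, Calr, Hspa5 and Hbb-bs, were chosen after their values were seen. The comparison, the 39 gene lists and the rule were chosen with earlier results of these data known. Of the list entries 6 were not matched. The fit was repeated with changed pseudocount, filter, scaling and prior, with weights per library, with the replicate number as a block, on the 6 libraries alone, with a minimum difference and without each library in turn.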

Additional observations from a re-analysis of the deposited data

How the results depend on the processing

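The 348 calls kept their direction under all 24 alternatives in which they were tested. They were chosen for their difference in these same libraries, so this is a description. Changed filters, changed priors and left-out control libraries cannot alter that difference. Without the filter on low values 142 of 25059 genes were called (60 higher, 82 lower), 115 of them among the 348. With library weights there were 603 (247 higher, 356 lower), and with a required difference of 1 on the log2 scale there were 2 (0 higher, 2 lower), Rpl3-ps1 and Gm11942. Leaving out 1 library at a time gave 36 to 522 calls, 11 to 270 higher and 24 to 252 lower.

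The pairing of replicate numbers of K9M and K36M was not shown by the data: same-number correlations of deviations were 0.0891, -0.193 and 0.0774, against -0.186 to 0.115 for other pairs. With the replicate number as a block there were 645 calls over 9 libraries (306 higher, 339 lower) and 124 over 6 libraries (61 higher, 63 lower), with 340 and 89 of the 348 among them.

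The H3f3a difference was 0.59 to 0.65 with all mice. It no longer passed the threshold with a pseudocount of 0.1 (0.61), no filter, TMM scaling, a prior without trend or a robust one, the 6 libraries alone, the block over 6 libraries or the required difference (0.614 in each), or with median of ratios scaling (0.60). Leaving out 1 library gave 0.57 to 0.70. H3f3b went from -0.119 to 0.0359, positive without K36M replicate 3. Ly6a turned negative with quantile normalization (-0.00142), median of ratios scaling (-0.0005) and library weights (-0.0181). Leaving out 1 library gave -0.157 to 0.187 for Ly6a, negative without K36M replicate 1 or K9M replicate 2 (-0.126). Where 1 library was left out, fewer samples remained; for the other changes the cause was not tested. Of 39 list medians, 16 moved by more than the spread between mice in some setting. Genes under about 1 RPKM rest on few reads and are the least certain.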
